A study of Mus musculus with 24 samples.

Results

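The RNA of 8 genes of mouse chromosome 17 was followed in neural stem cells (NSCs) that carry or lack the MommeD43 allele of Smchd1: Shd, and Lpin2, Emilin2, Ndc80, Myom1, Myl12a, Myl12b and Tgif1, which lie close to Smchd1 on that chromosome. All 8 were found by symbol among the 14922 genes of the deposited table, which held 708 genes placed on chromosome 17. The 7 neighbours were listed for their position, with earlier results of these data known. They are a part of the 21 other table genes within 2 Mb of Smchd1. Shd was chosen by its measured values, an RNA level that was higher in MommeD43 cells of the FVB strain only, together with its place on the chromosome of the mutated gene, so that its MommeD43 values are a description here and carry no test.

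The cells were female NSC lines grown from embryonic mouse cortex, harvested at early passage and sequenced as poly(A) RNA. FVB_WT (Smchd1+/+) and FVB_MD43 (homozygous for the allele induced by the mutagen ENU) were on FVB/NJ. B6GFP_WT and B6GFP_MD43 were on C57BL/6J. The labels call B6GFP_WT Smchd1+/+, whereas the study describes both groups of this strain as homozygous for a fusion of Smchd1 with GFP, without and with the MommeD43 change. The MommeD43 change of B6GFP_MD43 was made by CRISPR editing, together with a silent change. Strain and GFP fusion therefore differed together, and between the MommeD43 groups so did the origin of the allele. These cannot be told apart. The 24 libraries came in 3 batches, batch 1 with both strains, batch 2 with FVB alone and batch 3 with B6GFP alone, and 1 or 2 lines of each group had a library in each of the batches of their strain. In 2 columns, FVB_MD43 replicate 3 and B6GFP_MD43 replicate 2 of batch 1, every gene equalled the mean of the group mates, and they were left out. That left 6 libraries of 5 lines (FVB_WT), 5 of 4 lines (FVB_MD43), 6 of 4 lines (B6GFP_WT) and 5 of 4 lines (B6GFP_MD43).

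SMCHD1 is a chromosomal protein related to the SMC family that is needed for silencing on the inactive X chromosome and at some clustered autosomal genes, and MommeD43 is a missense allele of its gene. Shd encodes an adaptor protein of the SHB family with an SH2 domain, a substrate of ABL kinase that is expressed mainly in brain. An allele made by mutagenesis is bred together with the stretch of chromosome around it, so a gene on the same chromosome can differ between mutant and wild-type lines through a linked DNA change. The same amino acid change made by editing on another strain does not bring that stretch with it. The study mapped the mutation to an interval of chromosome 17 that begins beyond Shd and holds Smchd1 and its listed neighbours. Its sequencing of mutant and wild-type mice found other variants in that interval and judged none likely detrimental. The comparison of the 4 groups bears on linkage for Shd, which lies 15.4 Mb from Smchd1, and for genes close to either locus. Since strain, GFP fusion and origin of the allele change together, this comparison cannot assign an FVB change to a linked variant.

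Levels are log2 CPM, the log2 of a gene's reads scaled to the size of its library, as deposited. Setting the deepest library, of batch 3, at 1, batch 1 had relative depths from 0.526 to 0.893, batch 2 from 0.137 to 0.19, and the shallowest of batch 3 was at 0.435. Absolute depth was unknown, so no counting intervals are given. The 5 NSC markers were all in the table (Vim 10.82 to 11.92 log2 CPM, Fabp7 10.09 to 11.15, Nes 9.63 to 10.8, Sox2 7.39 to 8.27 and Pax6 4.34 to 5.23 over the 22 libraries), and none of the 4 microglial markers was. Summed CPM of the 3 endothelial markers was 0.316 to 6.51, of 3 meningeal fibroblast markers of 4 listed 0.391 to 2.71, and of 2 mural markers of 4 listed 0.654 to 27.3. The 4 neuronal markers summed to between 713 and 1080 CPM, most of it Map2, and the 4 oligodendrocyte lineage markers to between 8.48 and 117. B6GFP_MD43 replicate 2 had the highest Tubb3 (6.48 log2 CPM, median of all libraries 2.8) and Dcx (5.2, median 1.52), and the part of this in its other values was not tested. The 4 astrocyte markers moved with strain, with sums of 70.7 to 159 in FVB_WT, 73.4 to 191 in FVB_MD43, 20.4 to 105 in B6GFP_WT and 33.5 to 49 in B6GFP_MD43; their part in the strain differences below was not tested. The libraries of B6GFP_WT replicate 4 and B6GFP_MD43 replicate 2 stood apart, with quality weights of 0.101 and 0.158 against 0.293 to 4.9 for the others. In bulk RNA, fewer cells of a type and less RNA per cell cannot be told apart.

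Shd (Entrez 20420) spans chromosome 17, 55969828 to 55976620, on the forward strand of GRCm38.p6, and no other GENCODE gene overlaps it. Its promoter is shown because the question is whether a change in DNA near Shd differs between the groups, and this is the reference (C57BL/6J) sequence to which any FVB sequence would be compared. The RefSeq promoter table of GRCm38.p6 gives chr17:55970232-55970531, forward strand, 250 bases before and 50 after an annotated start, with each CG dinucleotide (the letters CG, the same on both strands) in capitals:
Shd promoter: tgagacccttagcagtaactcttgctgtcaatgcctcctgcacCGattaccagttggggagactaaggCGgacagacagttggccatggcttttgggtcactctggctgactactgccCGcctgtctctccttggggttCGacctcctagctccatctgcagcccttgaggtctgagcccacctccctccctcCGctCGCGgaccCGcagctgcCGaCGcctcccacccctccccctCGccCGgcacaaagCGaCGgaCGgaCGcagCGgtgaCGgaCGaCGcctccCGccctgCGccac
It held 22 CG dinucleotides. Of 32851 promoters of this length, 23.1% held as many or more, 94.6% held at least 1, and the median was 7. No sequence of the FVB lines was used here, so a variant in this window was not tested.

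Shd RNA was higher in FVB_MD43 than in each of the other groups. The 6 FVB_WT libraries ran from 2.75 to 3.01 log2 CPM with a median of 2.84. The 5 FVB_MD43 libraries read 3.74 and 3.56 in batch 1 and 3.72, 3.75 and 3.55 in batch 2. Every FVB_MD43 library lay above every FVB_WT library, with a gap that was wider than the spread within either group. The 6 B6GFP_WT libraries ran from 2.83 to 3.43 with a median of 3.08, and the 5 B6GFP_MD43 libraries read 3.16 and 2.8 in batch 1 and 3.03, 3.37 and 3.21 in batch 3. The 2 B6GFP groups overlapped over nearly their whole range, and no B6GFP library reached the lowest FVB_MD43 value.

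Over lines, Shd averaged 2.84 ± 0.08 (SD, n = 5) in FVB_WT, 3.14 ± 0.21 (n = 4) in B6GFP_WT, 3.14 ± 0.17 (n = 4) in B6GFP_MD43 and 3.69 ± 0.09 (n = 4) in FVB_MD43, from lowest to highest. The 2 middle groups did not differ beyond their spread. The fitted change with MommeD43 was 0.75 on the log2 scale in FVB (SE 0.0906, 95% interval 0.56 to 0.93), a 1.68-fold difference, and -0.08 in B6GFP (SE 0.118, interval -0.33 to 0.16). The difference between these changes, B6GFP minus FVB, was -0.83 (SE 0.149). All of these are the values that chose Shd. For scale only, and with nothing read from it for a gene chosen on this comparison, 0.0737% of all genes passed in FVB, 0.0201% passed as higher, and 0.469% had FVB_MD43 lines that all lay above the FVB_WT lines. The study itself reported no significant change with MommeD43 in NSCs of either strain.

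The change in FVB had nearly the same size in each batch, 0.76 with batch 1 alone and 0.75 with batch 2 alone, although batch 2 was several times shallower. In B6GFP the batches went opposite ways, with -0.25 in batch 1 and 0.27 in batch 3. Single lines moved the B6GFP value as well, which became -0.31 when B6GFP_MD43 replicate 1 was left out, -0.24 when B6GFP_WT replicate 2 was, and 0.02 when B6GFP_WT replicate 1 was. With B6GFP_WT replicate 4 or B6GFP_MD43 replicate 2 left out, it was -0.06 and -0.07.

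**Figure D1:**
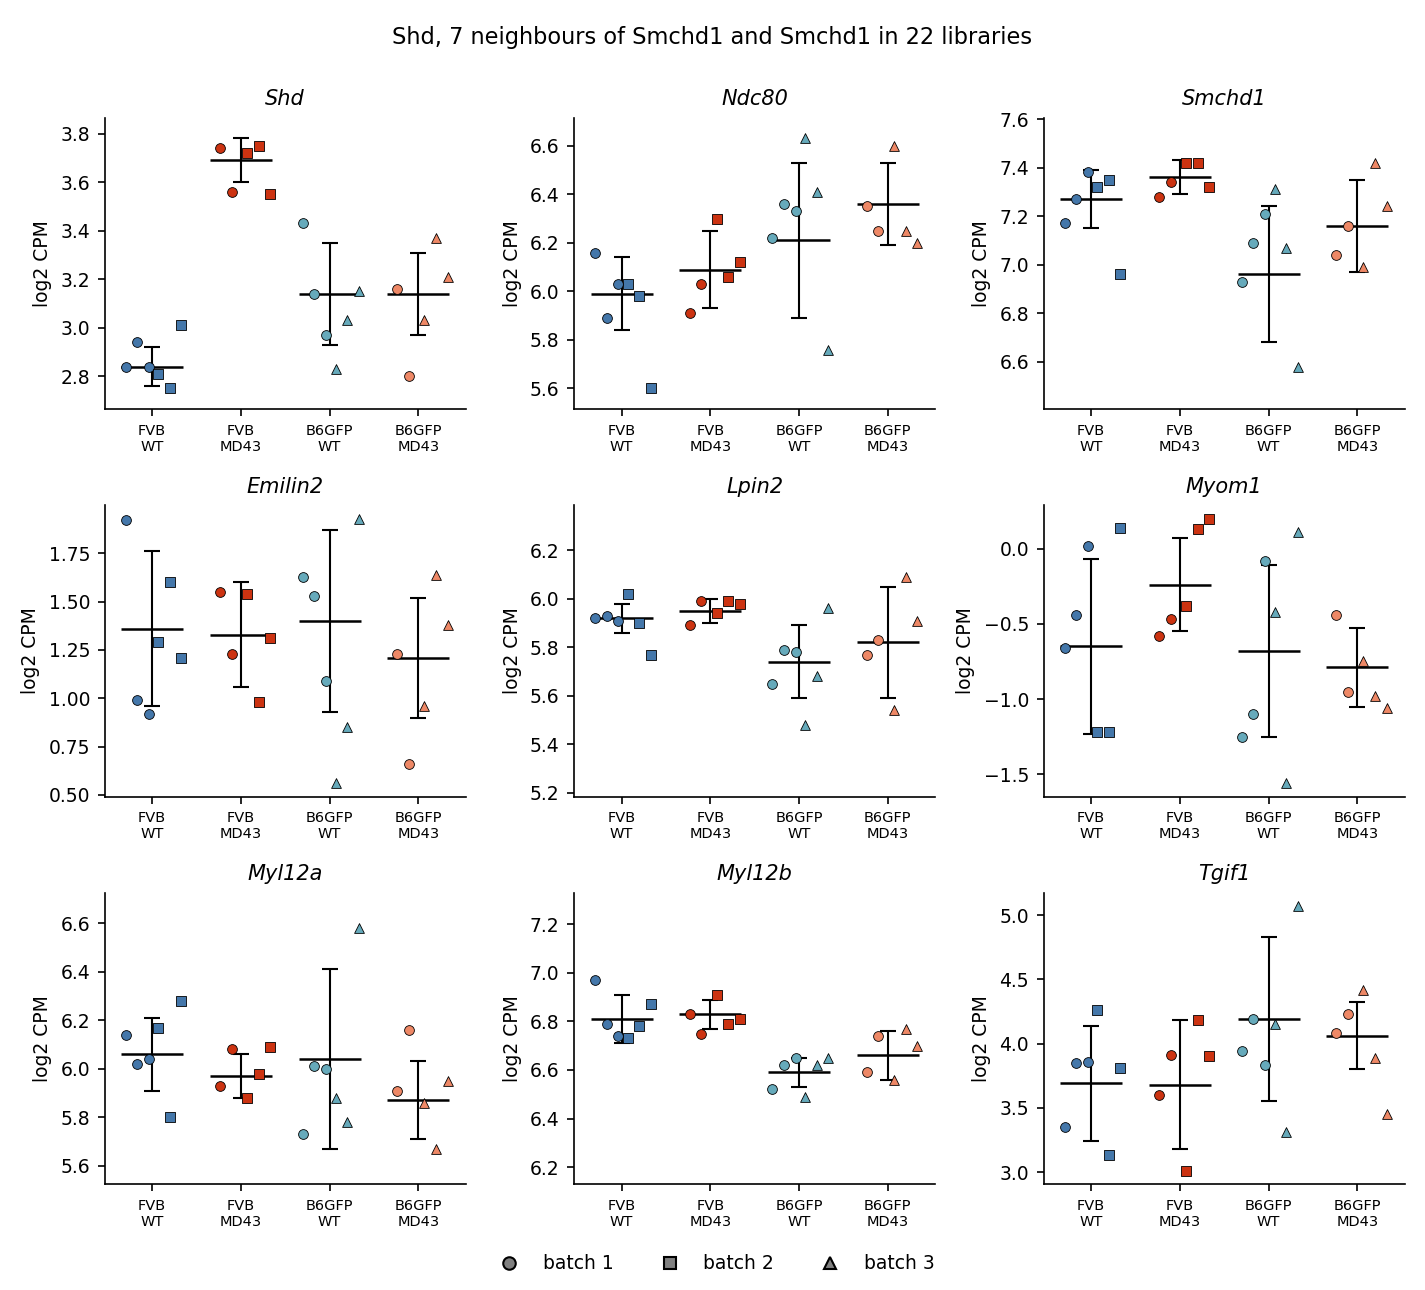
Levels of Shd, the 7 neighbours and Smchd1 as log2 CPM in the 22 libraries, 1 panel per gene and 1 column of points per group, with the marker shape giving the batch and the bars the mean and SD over lines. For Shd the 5 FVB_MD43 points sit between 3.55 and 3.75, above all others, whereas the groups of every other gene overlap between MommeD43 and wild type.

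The wild-type groups show whether Shd already differs between the strains without MommeD43. The comparison is not independent of the choice of Shd, since a gene chosen as higher in FVB_MD43 than in FVB_WT is more likely to have low FVB_WT values, and the same FVB_WT libraries enter both. The adjusted p below is therefore a description and not a test of Shd. Shd was 0.29 higher on the log2 scale in B6GFP_WT than in FVB_WT (SE 0.103, interval 0.08 to 0.5, limma adjusted p = 0.029), a 1.22-fold difference, against 41.1% of all genes passing in this comparison. All 4 B6GFP_WT lines lay above the 5 FVB_WT lines, with 2.99 against 2.98 at the closest pair, as was so for 6.5% of all genes, while single libraries overlapped. The call rested on few libraries: without B6GFP_WT replicate 1, whose library had the highest wild-type value (3.43), the difference was 0.15 (adjusted p = 0.289), and it also lost the threshold in batch 1 alone (0.33, adjusted p = 0.0856), without quality weights (0.25, adjusted p = 0.354), and without B6GFP_WT replicate 2 (0.28, adjusted p = 0.0858) or FVB_WT replicate 3 (0.27, adjusted p = 0.0775).

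The genes beside Shd were then described. Of the 3 table genes on each side, none passed between FVB_MD43 and FVB_WT, where 0.0737% of all genes did. None passed between B6GFP_MD43 and B6GFP_WT either, where no gene of the table did. Yju2, a splicing factor gene 1877 bases before Shd, was -0.13 in FVB (SE 0.056, limma adjusted p = 0.618, unadjusted p = 0.0293) and -0.06 in B6GFP (adjusted p = 1). Its group means over lines were 4.22 in FVB_WT, 4.12 in FVB_MD43, 4.04 in B6GFP_WT and 4.06 in B6GFP_MD43. Fsd1, a gene for a microtubule-associated protein 9842 bases after Shd, was 0.12 in FVB (SE 0.0972, adjusted p = 0.912) and 0.08 in B6GFP. The farther ones, Mpnd, Sh3gl1, which encodes an endophilin of membrane trafficking, and the zinc finger gene Zfp959, had FVB differences of 0.02, 0.03 and 0.04 (adjusted p 0.961 to 0.984).

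Zfp119b, a zinc finger gene 13595 bases before Shd, differed far more between strains than with the allele. Its level over lines was 2.17 ± 0.06 in FVB_WT, 2.16 ± 0.42 in FVB_MD43, -0.47 ± 1.29 in B6GFP_WT and -0.76 ± 0.31 in B6GFP_MD43. The wild-type strain difference was -3.18 (SE 0.192, limma adjusted p = 4.64e-11), while the MommeD43 difference was 0.09 in FVB (adjusted p = 0.975) and 0.64 in B6GFP (unadjusted p = 0.00886, adjusted p = 1). In B6GFP the plain means went the other way from the fitted value. B6GFP_WT replicate 4, which the fit weighted by 0.101, was at 1.44 and the other 3 lines of that group at -1.35 to -0.98.

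Within 5 Mb of Shd, 55 other genes were in the table. In FVB 1 of them passed (1.82%, against 0.0737% of all genes) and 4 had an unadjusted p under 0.05 (7.27%, against 6.86%). In B6GFP none passed by limma, 1 had an unadjusted p under 0.05, and over all genes none passed and 319 (2.14%) had such a p. The median change of the window was 0.017 in FVB and -0.00804 in B6GFP, next to 0.0131 and 0.011 over all genes. The gene that passed was Kcnh8, a potassium channel gene, at -1.58 (SE 0.282, adjusted p = 0.0311). It was below 1 CPM in every group, with means over lines of -1.13 in FVB_WT and -2.46 in FVB_MD43, and the lines of those groups overlapped. In B6GFP it was -0.53 (adjusted p = 1), and the difference of the 2 changes did not pass either (1.05, unadjusted p = 0.0337, adjusted p = 1). The call was lost at values of about the same size in batch 1 (-1.36) and batch 2 (-1.56) alone, where no gene of the table passed, without quality weights (-1.42), without FVB_WT replicate 2 (-1.59), 3 (-1.49) or 4 (-1.55) and without B6GFP_WT replicate 3 (-1.58). Without FVB_MD43 replicate 2 the value was -0.81 and passed (adjusted p = 0.0321), in a setting where 6.57% of all genes passed. Next by p in FVB were Plin3, a lipid droplet coat gene (0.5, adjusted p = 0.507), and the acetyltransferase gene Kat2b (0.16, adjusted p = 0.605).

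**Figure D2:**
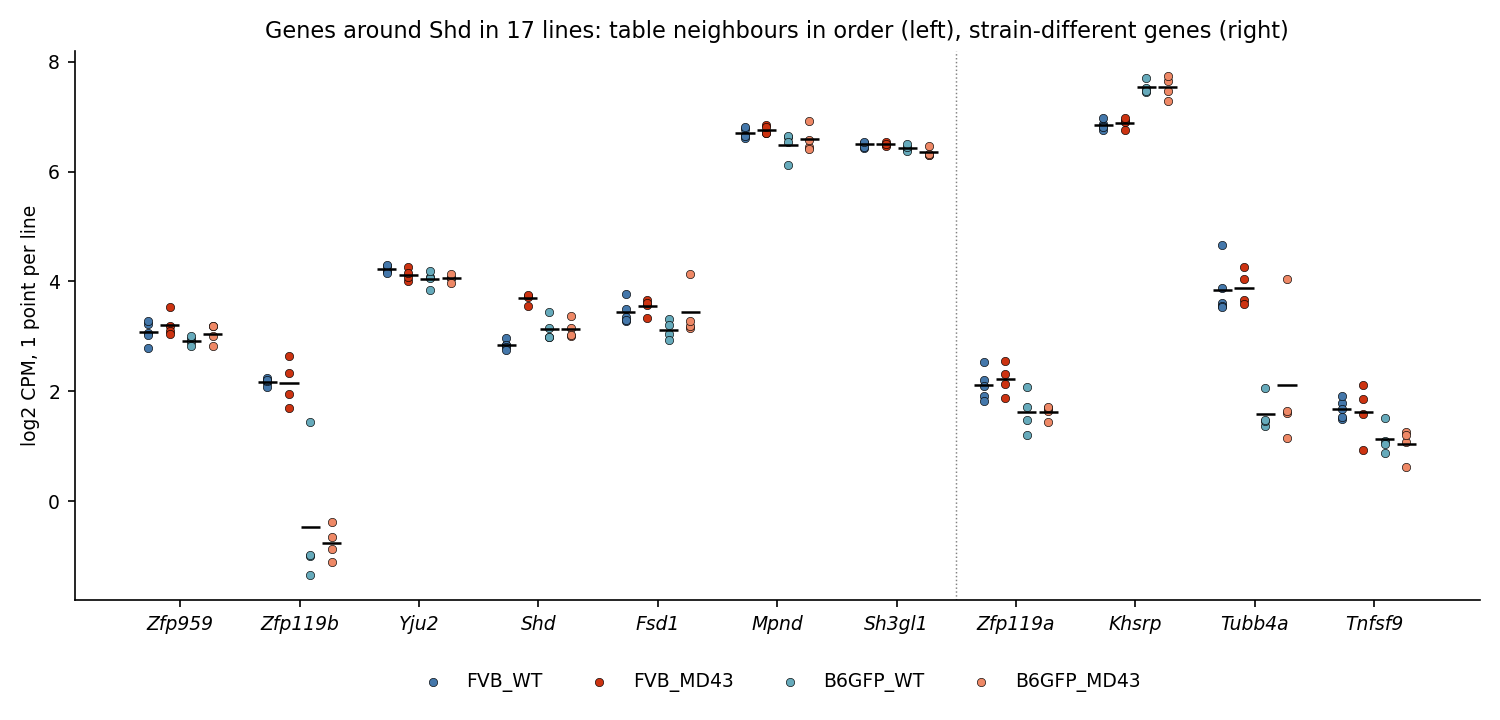
Levels in log2 CPM, 1 point per line and a bar at each group mean, of Shd with its 3 table neighbours on each side in chromosome order (left of the dotted line) and of further genes within 5 Mb of Shd that differed between wild-type groups (right). The FVB_MD43 lines of Shd lie at 3.56 to 3.75 against 2.75 to 2.98 in FVB_WT, and the group means of Zfp119b, Tubb4a and Khsrp separate by strain with FVB_MD43 beside FVB_WT.

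Genes near Shd with a large strain difference show where the FVB_MD43 lines stood relative to both backgrounds. Tubb4a, a tubulin gene 1.1 Mb from Shd, had means of 3.85 in FVB_WT, 3.89 in FVB_MD43, 1.59 in B6GFP_WT and 2.11 in B6GFP_MD43, and its wild-type strain difference was -1.97 (limma adjusted p = 1.03e-07). Khsrp, an RNA-binding protein gene, had means of 6.85, 6.89, 7.53 and 7.54 in the same order (strain difference 0.65, adjusted p = 9.81e-09). Zfp119a and Tnfsf9, a ligand of the TNF family, had strain differences of -0.73 and -0.79, with FVB_MD43 means of 2.22 and 1.62 beside FVB_WT means of 2.11 and 1.68. In all 5 of these genes, Zfp119b included, the FVB_MD43 mean was nearer to the FVB_WT than to the B6GFP_WT mean. Along the whole chromosome 12 genes, chosen after their values were seen, passed between wild-type groups with a difference of at least 2 on the log2 scale and a mean of at least 1 log2 CPM in a group, 11 of them before Shd and 1 beyond Smchd1. None lay between Shd and Smchd1, and all but Zfp119b lay more than 5 Mb from Shd. In each FVB_MD43 line 11 or 12 of the 12 genes were nearer to the FVB_WT mean, as in each FVB_WT line. The genes were chosen for this difference between the wild-type groups, so the wild-type lines fall on the side of their strain nearly by construction. The FVB_MD43 lines entered that choice only through the level threshold and the shared fit. What their side means for a linked variant was not tested.

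The 7 neighbours of Smchd1 were next asked the same question, and their values, listed by position, were tested. Smchd1 itself, the mutated gene (Entrez 74355, 71344489 to 71475366, reverse strand), did not pass with MommeD43 in FVB (0.05, SE 0.0597, limma adjusted p = 0.942) or in B6GFP (-0.01, SE 0.0776, adjusted p = 1); a missense change need not alter the RNA level, so this does not check the labels. By limma none of the 7 neighbours passed in FVB, where 0.0737% of all genes passed, and none had an unadjusted p under 0.05, against 6.86% of all genes. None passed in B6GFP, where no gene passed by limma and 2.14% had an unadjusted p under 0.05, and none of the 7 did so. None passed for the difference of the changes between strains, where no gene passed by limma and 459 (3.08%) had an unadjusted p under 0.05, again none of the 7. Fitted changes of the 7 ran from -0.04 to 0.19 in FVB (median 0.04, all genes 0.013) and from -0.22 to 0.16 in B6GFP (median 0.06, all genes 0.011). No neighbour had lines that separated with MommeD43 in either strain, which 1.05% of all genes had in FVB and 1.23% in B6GFP. A p that misses the threshold does not show that the groups are alike: the 95% intervals in FVB reached from -0.41 to 0.6 and in B6GFP from -0.68 to 0.83 at their widest. The fitted sign was opposite to that of the plain means over lines for Emilin2 in FVB and for Ndc80, Myom1, Myl12a, Tgif1 and Smchd1 in B6GFP.

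Ndc80 is nearest, 20.7 kb beyond Smchd1 (Entrez 67052, 71496100 to 71526857, reverse strand), and encodes the kinetochore subunit that holds spindle microtubules. FVB_WT ran from 5.6 to 6.16 log2 CPM with a median of 6.01, and FVB_MD43 read 5.91 and 6.03 in batch 1 and 6.3, 6.06 and 6.12 in batch 2. B6GFP_WT ran from 5.76 to 6.63 with a median of 6.35, and B6GFP_MD43 read 6.35 and 6.25 in batch 1 and 6.6, 6.25 and 6.2 in batch 3. MommeD43 and wild-type libraries overlapped in both strains. The MommeD43 change was 0.08 in FVB (SE 0.0658, interval -0.06 to 0.22, limma adjusted p = 0.911) and -0.01 in B6GFP (SE 0.0856, interval -0.18 to 0.17, adjusted p = 1).

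On the other side, 32.9 kb before Smchd1, lies Emilin2 (Entrez 246707, 71252172 to 71311556, reverse strand), the gene of an extracellular matrix glycoprotein. Its libraries spread widely in every group, from 0.92 to 1.92 in FVB_WT, 0.98 to 1.55 in FVB_MD43, 0.56 to 1.93 in B6GFP_WT and 0.66 to 1.64 in B6GFP_MD43. The fitted change was 0.19 in FVB (SE 0.171, limma adjusted p = 0.922) and -0.22 in B6GFP (SE 0.222, adjusted p = 1). In FVB it was 0.34 in batch 1 and -0.1 in batch 2, and in B6GFP -0.53 in batch 1 and 0.55 in batch 3, so neither had a steady sign.

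Lpin2, 94.7 kb before Smchd1 (Entrez 64898, 71183532 to 71249818, forward strand), encodes a lipin, a phosphatidate phosphatase of glycerolipid synthesis. FVB_WT ran from 5.77 to 6.02 with a median of 5.92, and FVB_MD43 read 5.89 and 5.99 in batch 1 and 5.94, 5.99 and 5.98 in batch 2. B6GFP_WT ran from 5.48 to 5.96 with a median of 5.73, and B6GFP_MD43 read 5.77 and 5.83 in batch 1 and 5.54, 6.09 and 5.91 in batch 3. All FVB_MD43 libraries lay inside the FVB_WT range. The MommeD43 change was 0.04 in FVB (SE 0.0483, interval -0.06 to 0.14, limma adjusted p = 0.955) and 0.08 in B6GFP (SE 0.0629, interval -0.05 to 0.21, adjusted p = 1).

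Myom1, 218 kb away (Entrez 17929, 71003332 to 71126856, forward strand), encodes myomesin of the M-band of muscle sarcomeres, and was near the low end of the table. Its libraries ran from -1.22 to 0.14 log2 CPM in FVB_WT, -0.58 to 0.2 in FVB_MD43, -1.56 to 0.11 in B6GFP_WT and -1.06 to -0.44 in B6GFP_MD43, so that nearly all were below or about 1 CPM. The changes of 0.1 in FVB (SE 0.244, interval -0.41 to 0.6) and 0.16 in B6GFP (SE 0.318) were smaller than their errors. Tgif1, 491 kb away (Entrez 21815, 70844205 to 70853532, reverse strand), encodes a homeodomain repressor of TGF-beta and SMAD signalling, with a known part in forebrain development. It ran from 3.13 to 4.26 in FVB_WT and from 3.01 to 4.18 in FVB_MD43, and changed by -0.02 in FVB (SE 0.144, limma adjusted p = 1) and 0.1 in B6GFP (SE 0.187, adjusted p = 1). Single lines of Tgif1 differed by over 1 log2 unit within every group but B6GFP_MD43.

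Myl12a (Entrez 67268, 70993793 to 71002533) and Myl12b (Entrez 67938, 70973963 to 70990516), 342 and 354 kb before Smchd1 on the reverse strand, encode regulatory light chains of non-muscle myosin, the motor of cell contraction and cytokinesis. They are near-identical copies in their coding part, where some reads may not be told apart. Their coding sequences in GENCODE (GRCm38), both 519 bases long, are 96.5% identical with 18 differing bases, and 49 of 445 stretches of 75 bases, the length of the study's reads, are identical in both. Over the annotated transcripts the copies share 501 such stretches, of 3426 in Myl12a and 3207 in Myl12b, so most reads can be told apart. A second annotated Myl12b gene also shares 462 exonic bases with Myl12a. The longest run of coding bases without a difference is 105. The following stretch of 150, coding bases 19 to 168 counted from the A of the start codon, does not hold all of that run. No stretch of its length has fewer differences, and the single differing base is in capitals:
Myl12a: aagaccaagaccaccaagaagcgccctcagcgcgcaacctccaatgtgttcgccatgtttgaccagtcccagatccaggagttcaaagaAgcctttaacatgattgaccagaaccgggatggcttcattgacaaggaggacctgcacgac
Myl12b: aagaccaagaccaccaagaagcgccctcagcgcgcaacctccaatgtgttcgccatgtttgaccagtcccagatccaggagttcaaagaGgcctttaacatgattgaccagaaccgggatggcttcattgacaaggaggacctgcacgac
Myl12b ran from 6.73 to 6.97 log2 CPM in FVB_WT with a median of 6.78, and read 6.83 and 6.75 in batch 1 and 6.91, 6.79 and 6.81 in batch 2 in FVB_MD43. It ran from 6.49 to 6.65 in B6GFP_WT with a median of 6.62, and read 6.59 and 6.74 in batch 1 and 6.56, 6.77 and 6.7 in batch 3 in B6GFP_MD43. The wild-type libraries separated by strain, and the B6GFP_WT lines lay below all FVB_WT lines, as was so for 9.38% of all genes, while the MommeD43 libraries overlapped with wild type in each strain. Its MommeD43 change was 0 in FVB to 2 decimals (SE 0.0398, interval -0.08 to 0.08, limma adjusted p = 1) and 0.06 in B6GFP (SE 0.0518, adjusted p = 1). Myl12a ran from 5.8 to 6.28 in FVB_WT and 5.88 to 6.09 in FVB_MD43, with changes of -0.04 in FVB (SE 0.0658, adjusted p = 0.975) and 0.06 in B6GFP (SE 0.0856, adjusted p = 1).

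**Figure D3:**
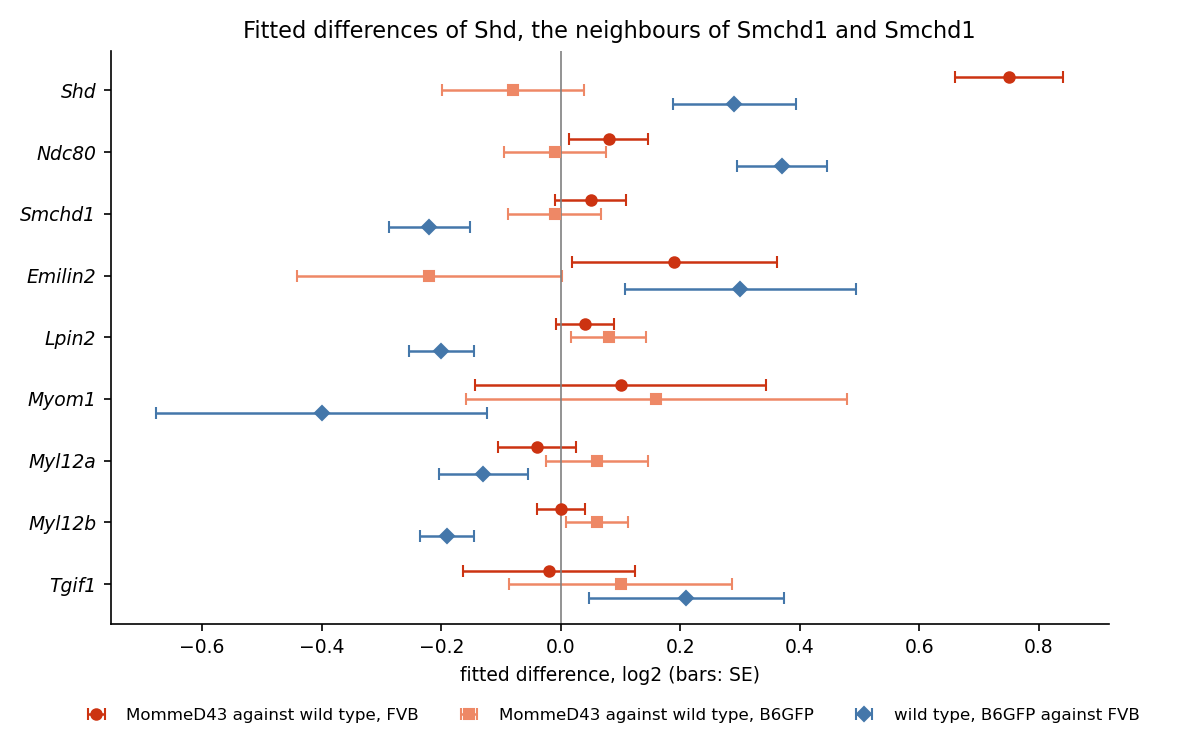
Fitted differences on the log2 scale with SE bars for Shd, the 7 neighbours and Smchd1, with circles for MommeD43 against wild type in FVB, squares for the same in B6GFP and diamonds for B6GFP against FVB in wild type. The FVB circle of Shd is at 0.75 and those of the neighbours lie between -0.04 and 0.19, while the strain diamonds spread from -0.4 to 0.37.

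Per kilobase of exon, the 8 genes covered a wide range of levels. In FVB_WT the log2 CPM per kb was 5.34 for Myl12b, 4.31 for Myl12a, 3.29 for Ndc80, 2.31 for Lpin2, 1.48 for Shd, 1.19 for Tgif1, -1.1 for Emilin2 and -4.03 for Myom1. Shd was at 2.33 in FVB_MD43 on this scale and at 1.78 in both B6GFP groups. In FVB_MD43 it thus stood beside Lpin2, at 2.34, and in wild-type FVB nearer to Tgif1.

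In wild-type cells the strains differed at 3 of the 7 neighbours, 42.9% of them, where 41.1% of all genes passed. Ndc80 was 0.37 higher in B6GFP_WT (SE 0.0746, limma adjusted p = 0.000428). Lpin2 was lower by 0.2 (log2 difference -0.2, SE 0.0548, adjusted p = 0.00687), and Myl12b lower by 0.19 (log2 difference -0.19, SE 0.0452, adjusted p = 0.00171). All 3 calls remained in batch 1 alone, which holds both strains, with 0.33, -0.19 and -0.2. None remained without quality weights, where 8.44% of all genes passed, although the values were of like size (0.28, -0.18 and -0.21), and that of Lpin2 was also lost without B6GFP_WT replicate 1 (-0.16, adjusted p = 0.0536) and with libraries centred on their median (-0.13, adjusted p = 0.0753). Tgif1 (0.21), Emilin2 (0.3), Myom1 (-0.4) and Myl12a (-0.13) did not pass (adjusted p 0.162 to 0.329). Smchd1 was -0.22 (SE 0.0676, adjusted p = 0.0143), a call lost without quality weights (-0.26, adjusted p = 0.266), without B6GFP_WT replicate 1 (-0.14, adjusted p = 0.147), without FVB_WT replicate 3 (-0.17, adjusted p = 0.0752) and with libraries centred on their median (-0.15, adjusted p = 0.0877). Reads were aligned by the authors to the C57BL/6J reference, and its part in strain differences was not tested.

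Within 5 Mb of Smchd1, 42 other genes were in the table. None passed in FVB by limma (0.0737% of all genes did), and 1 (2.38%) had an unadjusted p under 0.05, against 6.86% of all genes. None passed in B6GFP by limma, as over all genes, and 1 (2.38%) had an unadjusted p under 0.05, against 2.14%. The median change was -0.0122 in FVB and 0.0358 in B6GFP. The smallest p in FVB was that of Epb41l3, a membrane skeleton gene, at 0.53 (SE 0.16, unadjusted p = 0.00326, adjusted p = 0.31), with lines at 1.7 to 2.83 in FVB_WT and 2.48 to 2.77 in FVB_MD43. In B6GFP it was -0.14 (adjusted p = 1), beside plain means of 1.94 in B6GFP_WT and 2.44 in B6GFP_MD43, and the difference of the changes was -0.67 (unadjusted p = 0.0183, adjusted p = 1). Tmem200c (0.79, adjusted p = 0.736), below 1 CPM, and Dpy30, a subunit gene of histone H3K4 methyltransferases (-0.11, adjusted p = 0.747), followed. The count in FVB depended on FVB_MD43 replicate 2, the line with the highest weight: without it 5 genes of the window passed (Epb41l3, Tmem200c, Dpy30, Ehd3 and Snord53), but so did 6.57% of all genes. Along all of chromosome 17, Shd apart, 1 gene passed in FVB, Kcnh8, where 0.0737% of all genes did. None passed in B6GFP by limma, where 12 of 708 (1.69%) had an unadjusted p under 0.05, against 2.14% of all genes.

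**Figure D4:**
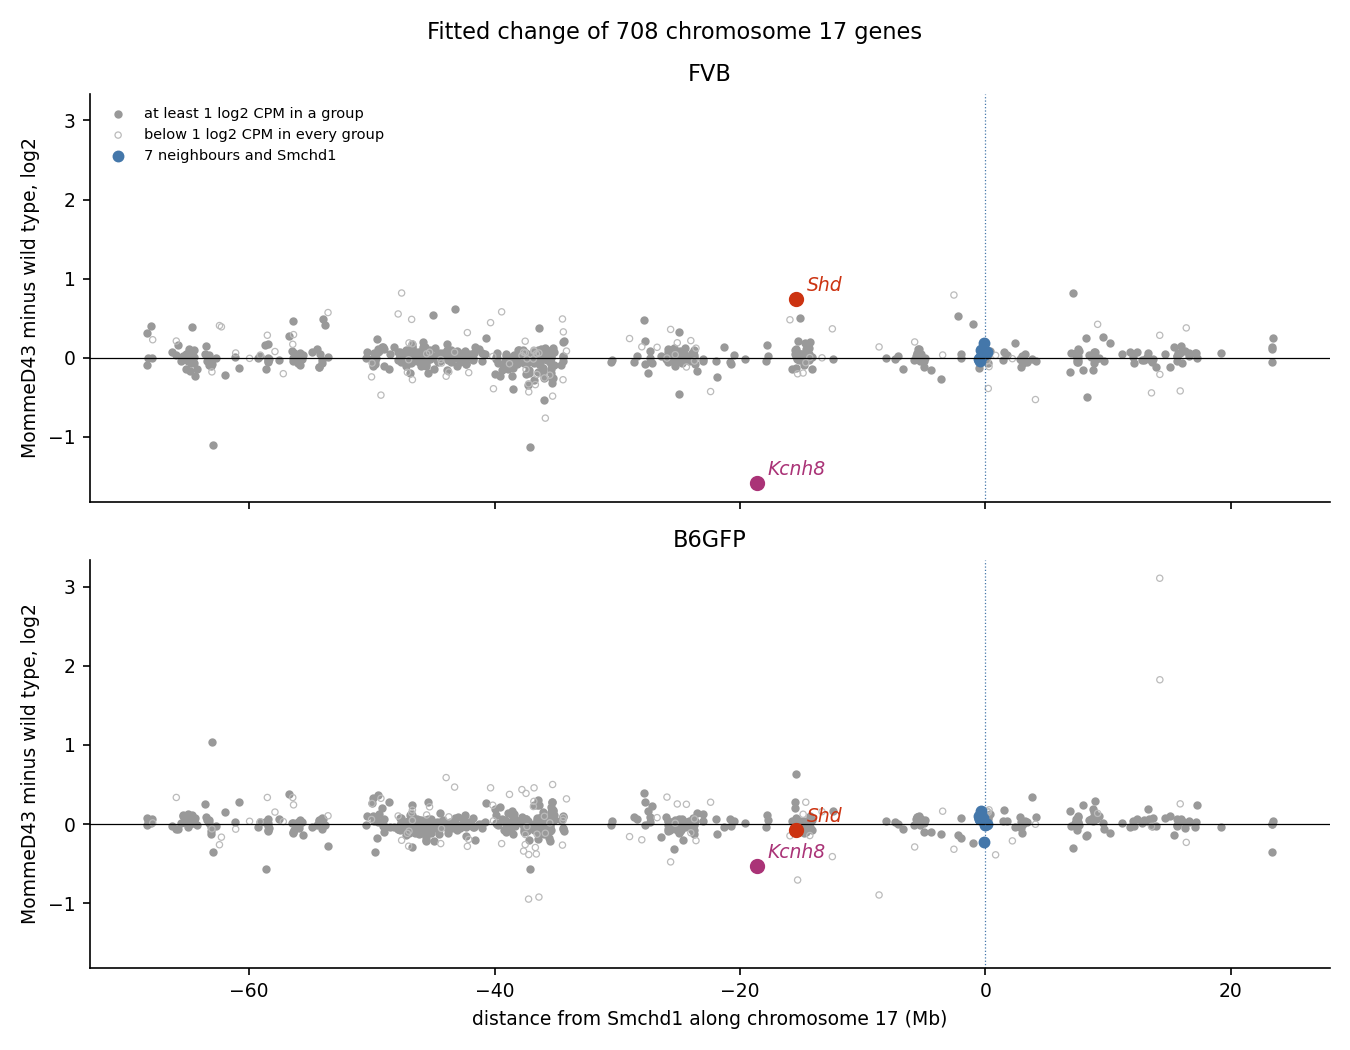
Fitted change with MommeD43, log2, of the 708 chromosome 17 genes against their distance from Smchd1 in Mb, in FVB (top) and B6GFP (bottom), with open points for genes below 1 log2 CPM in every group. Shd, 15.4 Mb from Smchd1, stands at 0.75 in FVB and -0.08 in B6GFP, and the 7 neighbours and Smchd1 at distance 0 lie close to the zero line in both.

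Genes near Smchd1 that differed between strains were described in the same way. Ndc80 had means over lines of 5.99 in FVB_WT, 6.09 in FVB_MD43, 6.21 in B6GFP_WT and 6.36 in B6GFP_MD43, with FVB_MD43 between the wild-type groups. Besides it, the genes with the largest wild-type differences were Lama1, a laminin chain gene (-1.07, limma adjusted p = 0.000445), C030034I22Rik (-0.83, adjusted p = 3.71e-05), Gm4705 (-0.54, adjusted p = 0.000385) and Ltbp1, a TGF-beta binding matrix gene (-0.35, adjusted p = 0.0321). C030034I22Rik had means over lines of 1.59 in FVB_WT, 1.54 in FVB_MD43, 0.76 in B6GFP_WT and 0.48 in B6GFP_MD43. Lama1 was at 2.74, 2.45, 1.7 and 1.64, Gm4705 at 5.55, 5.33, 4.73 and 4.87, and Ltbp1 at 3.61, 3.58, 3.32 and 3.53. The wild-type strain means were closer together than the FVB_WT lines were spread for Ndc80, Lama1 and Ltbp1, and not for C030034I22Rik and Gm4705.

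Partners and relatives of the 8 genes were listed to see whether others of their pathways moved. The 21 that were tested are described, and with MommeD43 none passed by limma in FVB, where 0.0737% of all genes did, or in B6GFP, where none did. An unadjusted p under 0.05 was found for 1 of them in FVB and none in B6GFP, against 6.86% and 2.14% of all genes. The median change was -0.02 in FVB and -0.03 in B6GFP. The 1 was Shf, an adaptor of the same family as Shd, at -0.33 in FVB (SE 0.0977, unadjusted p = 0.00321, adjusted p = 0.31) and -0.21 in B6GFP (adjusted p = 1). It went opposite to Shd in FVB, and it passed only with all 24 columns or without FVB_MD43 replicate 2, at -0.33 and -0.34. Shb was -0.13 in FVB, and the ABL kinases Abl1 and Abl2 were 0 to 2 decimals and 0.13, none passing.

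Between wild-type groups 6 of the 21 were higher in B6GFP_WT and 2 lower, against 17.9% and 23.2% of all genes. Among Shd relatives, Shb was 0.9 (limma adjusted p = 0.000148) and Abl2 0.44 (adjusted p = 0.00412), and Shf -0.76 (adjusted p = 1.6e-05). Of the partners of NDC80 in its complex, Spc24 (0.21, adjusted p = 0.0383) and Spc25 (0.17, adjusted p = 0.0468) were higher, and Nuf2 was 0.16 (adjusted p = 0.095). Of the non-muscle myosin genes, the heavy chains Myh9 (0.19, adjusted p = 0.0291) and Myh10 (0.22, adjusted p = 0.0236) were higher and the light chain Myl9 lower (-0.9, adjusted p = 0.018). Lipins, emilins, Ttn of the M-band group and the TGIF and SMAD genes had no call.

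The genes most like Shd over the 17 line means were Gm11578 (Pearson r 0.77), Hspb6, a small heat shock protein gene (0.744), the genes with Entrez identifiers 100503865 (0.743) and 100502598 (0.674), which carry no symbol, and the sulfatase gene Arsi (0.682). The points share libraries and depth, and no test of the correlations is given. Gm11578 was at 1.44 ± 0.59 in FVB_WT and 2.45 ± 0.2 in FVB_MD43, and Hspb6 at 2.51 ± 0.1 and 2.73 ± 0.09. In the B6GFP groups Gm11578 was at 2 ± 0.41 and 2.14 ± 0.3 and Hspb6 at 2.49 ± 0.07 and 2.56 ± 0.19, in the order wild type and MommeD43. None of the 3 with a known position was on chromosome 17.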

How the data were processed

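The authors trimmed reads, per the submitters' notes with Trim Galore 0.4.4, aligned them with HISAT2 2.0.5 to GRCm38.p6 and used limma 3.40.6. The deposited values were log2 CPM that the authors had corrected for batch. The counting tool was not given in the sources used here. From them, limma 3.58.1 in R 4.3.3 was fitted to all 14922 genes and 22 libraries, with group and batch terms, array quality weights, a mean-variance trend and the line as a block (consensus correlation 0.0827). Benjamini-Hochberg adjustment ran over the whole table, and genes below 0.05 are said to have passed. Fitted changes weight libraries unequally and can differ from differences of group means. The authors' earlier batch correction is not counted in the degrees of freedom, so intervals and p may be too narrow. The fit was also run on simulated data with independent noise. These had no line, batch or library quality differences, so they do not check the p values given here. Positions came from the GRCm38.p6 RefSeq table (14453 genes matched, 469 not). Named genes beyond the 8 were Smchd1, listed relatives, the 3 smallest FVB p and 5 largest called strain differences in each 5 Mb window, 3 neighbours on each side of Shd and the 5 genes most correlated with it. The 8 genes and all lists were chosen with earlier results of these data known. Lines were separate cultures; libraries of a line are technical repeats. Relative depth was read within each batch, where a shift of a gene by batch cancels, and rested on 3143 low values within 10 steps, all whole multiples to 0.02 of a step.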

Additional observations from a re-analysis of the deposited data

Results flagged for a closer look

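Line means of 34 named genes were screened in the 4 groups of 4 or 5 lines each, 136 groups in all, for a line far from its group mates, and 8 stood out; chance alone flags about 1 group in 20. No reported member was among them, and all 8 were B6GFP lines. In B6GFP_WT, replicate 4 was high for Zfp119b (1.44 log2 CPM, the others -1.35 to -0.98), Lama1 (2.14, the others 1.52 to 1.58) and Kat2b (5.16, the others 4.54 to 4.65), and replicate 1 for Tubb4a (2.06, the others 1.37 to 1.47). In B6GFP_MD43, replicate 2 was high for Tubb4a (4.05, the others 1.14 to 1.63), Fsd1 (4.14, the others 3.15 to 3.28) and Tmem200c (-1.07, the others -3.46 to -3.06), and replicate 4 for Gm4705 (5.47, the others 4.64 to 4.72). B6GFP_WT replicate 4 and B6GFP_MD43 replicate 2 are the lines with the lowest quality weights, 0.101 and 0.158; whether this bears on the flagged values was not tested.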

How the results depend on the processing

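The absence of calls among the 7 neighbours with MommeD43, in FVB, in B6GFP and for the difference of the changes, held in every setting run (0 in each). Few genes of the whole table passed in most settings, so this says little about the 7. In B6GFP no gene passed in the main fit, and at most 480 (3.22%) did, with all 24 columns. For the difference of the changes it was likewise none, and at most 61 (0.409%), with all 24 columns. The Shd change in FVB was 0.68 to 0.82 over 12 other settings and 0.70 to 0.84 with each line left out in turn. The Shd strain difference in wild type was 0.25 without quality weights (adjusted p = 0.354), 0.33 in batch 1 only (adjusted p = 0.0856) and 0.15 to 0.35 with each line left out. The count of neighbours differing between strains was 3, with 0 without quality weights, 2 with libraries centred on their median (Lpin2 lost), 4 with the mean of each line (Myl12a added, -0.25, adjusted p = 0.0199) and 2 to 3 with each line left out. The count within 5 Mb of Shd in FVB was 1 (Kcnh8), and 0 without quality weights, with the mean of each line, with only the 2 groups of the strain, with log2(CPM + 1), with genes above 1 log2 CPM in at least 4 libraries, in batch 1 only, in batch 2 only and in a window of 2 Mb, and 0 to 2 with each line left out. Kcnh8 is among the genes that the filter removes; for the other settings the cause was not tested. The count within 5 Mb of Smchd1 was 0 in both strains; with all 24 columns, where the columns that equal a group mean narrow the spread by construction, it was 1 in FVB and 2 in B6GFP (Clip4 and Ltbp1), and with each line left out 0 to 5 in FVB and 0 to 1 in B6GFP (Ltbp1, without B6GFP_MD43 replicate 1). Over the whole table, 11 genes passed in FVB, and 0 to 510 in the other settings (0 in either batch alone, 1 without quality weights and with only the 2 groups of the strain, 3 with log2(CPM + 1), 19 with libraries centred on their median, 510 with all 24 columns) and 3 to 981 with each line left out, 981 without FVB_MD43 replicate 2. Between wild-type groups it was 6131, and 1259 without quality weights. The study's own limma fit, whose data sets and terms were not the same, reported no significant change with MommeD43 in NSCs of either strain.

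Deviations of same-numbered MommeD43 and wild-type lines correlated at -0.484 to 0.138, and replicate numbers were not treated as pairs in the main fit. With so few lines per group this cannot show that lines were unpaired, and whether lines shared a litter was not tested. With the replicate block the Shd change was 0.70 in FVB and -0.16 in B6GFP, and the counts above were 0, 0 and 0 for neighbours, 0 and 1 for the FVB windows and 0 and 0 for the B6GFP windows; a strain comparison cannot be fitted beside it. Depth limits low genes such as Myom1 and Kcnh8 most, above all in batch 2.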
